A study of Homo sapiens with 2 samples.

Results

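Genes of the oxidative stress response driven by the transcription factor NRF2 were described in HCT116 cells, a human colon cancer cell line, that had been mock-treated or treated with DAC. The 9 genes were taken by name (NQO1, GCLM, TXNRD1, SRXN1, HMOX1, AKR1B10, AKR1C1, AKR1C2 and AKR1C3), and all 9 were found among the 33538 genes counted in both libraries. DAC (decitabine) is a cytidine analog that enters replicating DNA and blocks DNA methyltransferases there. It was given at 0.5 µM on days 1 and 3, the medium was replaced on day 5, and cells were harvested on day 7. The other library was from cells whose label gives the treatment as mock. Since 1 library was made per condition, a difference between conditions cannot be told apart from a difference between the libraries, and no test was made.

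NRF2, encoded by NFE2L2, is held at a low level by KEAP1, a cysteine-rich adaptor that presents it to a CUL3 ubiquitin ligase. Electrophiles and oxidants modify KEAP1, and NRF2 then accumulates, pairs with a small MAF protein and binds antioxidant response elements. Its textbook targets make glutathione, recycle thioredoxin, reduce quinones and aldehydes and break down heme, and the pathway is active in many cancers.

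Single cells were captured in droplets, and each transcript molecule was counted once near its poly(A) tail by a unique molecular identifier (UMI). Counts therefore measure molecules and were not divided by gene length. The mock-treated library held 1783 cells and 49911689 UMIs, and the DAC-treated library held 1751 cells and 59046165 UMIs. A mock-treated cell had a median of 27899 UMIs and a DAC-treated cell had 35340, and mitochondrial genes took a median of 17.9% and 18.3% of them. The 7 colon epithelial markers summed to 5022 and 7980 CPM (UMIs per 1000000 UMIs of the library) in mock- and DAC-treated cells, but differed widely. KRT18 was the highest at 2030 and 4280 CPM, and EPCAM was at 349 and 222. CLDN4 was at 86.9 and 27.3, CDH1 at 23.1 and 21.1, and VIL1, the lowest, at 0.741 and 1.05. The 3 immune markers summed to 6.43 and 9.57 CPM, the 4 fibroblast markers to 10.8 and 19.6, and the 2 endothelial markers to 0.120 and 1.83, and the part of other cells in the results was not tested. Since all cells were of 1 cell line, there was no cell type lacking these genes against which free RNA could be measured.

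The 9 genes fell into a well-counted group of 4 and a sparse group of 5. In mock-treated cells, NQO1 was the most abundant at 368 CPM, followed by TXNRD1 at 224, GCLM at 34.8 and HMOX1 at 10.3. In DAC-treated cells, TXNRD1 came first at 187 CPM, followed by NQO1 at 157, GCLM at 67.1 and HMOX1 at 19.5. The order of NQO1 and TXNRD1 was therefore exchanged between the libraries. The other 5 genes were at 0.601 CPM or less in both libraries, and their sums of UMIs ranged from 0 to 30. Among these, the counting intervals of AKR1C3, SRXN1 and AKR1C1 overlapped in mock-treated cells, so that their order was not resolved. Among the 13547 genes with at least 100 UMIs over both libraries, 31.0% were higher in DAC-treated cells by 1.5-fold or more and 14.2% were lower by 1.5-fold or more. The 4 well-counted genes passed this minimum, and 2 of them were higher (GCLM and HMOX1), 1 was lower (NQO1) and 1 was between (TXNRD1). With 4 genes, these counts do not set the group apart from all genes. The median log2 CPM ratio, DAC-treated over mock-treated, was 0.34 for the 4 genes and 0.24 for all genes.

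**Figure D1:**
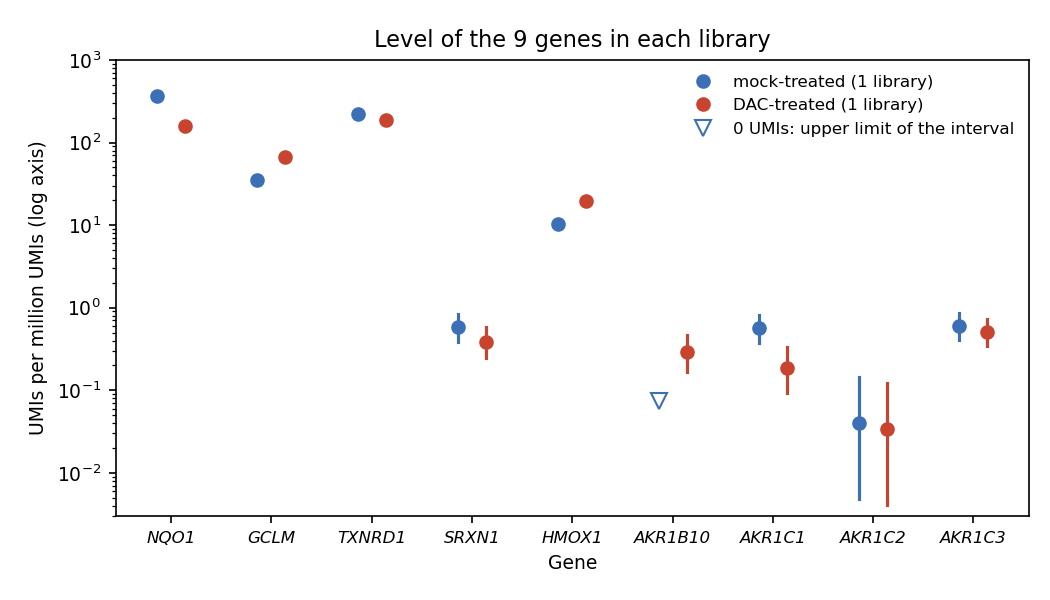
Level of each of the 9 genes in mock-treated (blue) and DAC-treated cells (red), in CPM (UMIs per 1000000 UMIs) on a log axis, with 1 library per condition and bars for the exact Poisson 95% interval of the count. GCLM and HMOX1 lie higher in DAC-treated cells and NQO1 lower, whereas SRXN1, AKR1C2 and AKR1C3 have overlapping intervals.

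NQO1, a quinone reductase that spends NADPH or NADH to reduce quinones by 2 electrons, had the lowest ratio of the 4. The gene lies on the minus strand of chromosome 16 (chr16:69706996-69726668, hg38) and has 6 exons. It had 18369 UMIs in mock-treated against 9254 in DAC-treated cells, a CPM ratio of 0.426 (95% interval for counting error, 0.415 to 0.437). Only 4.36% of all genes had a lower ratio. At least 1 UMI of NQO1 was detected in 82.9% (81.1 to 84.6%) of mock-treated and 65.5% (63.2 to 67.7%) of DAC-treated cells, and at least 3 UMIs in 70.1% and 46.9%. To limit the influence of shallow cells, cells with at least 10000 UMIs and at most 50% mitochondrial UMIs were also examined (1298 mock-treated and 1120 DAC-treated cells). In these, the 25th, 50th and 75th percentiles of NQO1 UMIs per cell were 7, 11 and 18 in mock-treated and 2, 5 and 11 in DAC-treated cells, even though the DAC-treated cells were deeper, with a median of 47060.5 UMIs against 32296.5. Per 10000 UMIs, the median level was 3.41 in mock-treated and 1.15 in DAC-treated cells, and 86.5% of DAC-treated cells were below the mock-treated median.

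The lower NQO1 level was uneven among DAC-treated cells. Of these cells, 52.1% were below the 10th percentile of mock-treated cells, whereas 2.50% were still above their 90th percentile. The highest cell had 77 UMIs in the DAC-treated library and 76 in the mock-treated library. Cells with at least 10000 UMIs, whatever their mitochondrial share, were then thinned to 10000 UMIs (1388 mock-treated and 1293 DAC-treated cells, with 395 and 458 shallower cells left out), and NQO1 was detected in 90.6% of mock-treated and 57.9% of DAC-treated cells. The squared coefficient of variation between thinned cells, after subtraction of Poisson sampling (excess CV2), was 0.389 in mock-treated and 1.43 in DAC-treated cells. The median excess CV2 of 9045 genes was 0.177 and 0.352, so that NQO1 was above the typical gene in both libraries. In cells thinned to 1000 UMIs, the excess CV2 of NQO1 was 0.618 and 0.876. Without the cells thinned to 10000 UMIs that had more than 50% mitochondrial UMIs, an alternative added after seeing the data, NQO1 was detected in 93.3% and 63.8% of cells, and its excess CV2 was 0.330 and 1.19 against medians of 0.146 and 0.277 over 9082 genes.

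GCLM, the modifier subunit of glutamate-cysteine ligase that makes the catalytic subunit GCLC more efficient in glutathione synthesis, was higher in DAC-treated cells, as was HMOX1, and the order of their ratios was not resolved. It lies on the minus strand of chromosome 1 (chr1:93885199-93909456, hg38) and has 7 exons. It had 1735 UMIs in mock-treated and 3964 UMIs in DAC-treated cells, a ratio of 1.93 (1.82 to 2.04), with 82.6% of all genes at a lower ratio. The share of cells with at least 1 UMI was 47.1% (44.7 to 49.4%) in mock-treated and 60.3% (57.9 to 62.6%) in DAC-treated cells, and the share with at least 3 UMIs was 12.5% and 32.5%. The higher level was spread over the cells. Among the deep cells, the quartiles of UMIs per cell were 0, 1 and 2 in mock-treated and 1, 3 and 5 in DAC-treated cells, and 71.0% of DAC-treated cells were above the mock-treated median per 10000 UMIs. The excess CV2 was 0.509 in mock-treated and 0.470 in DAC-treated cells.

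The promoters of both genes are shown because they moved in opposite directions and differ in CpG dinucleotides, the sites of DNA methylation. Each line gives the 250 bases before the transcription start on the strand of the gene (RefSeq, GRCh38.p14), with CpG dinucleotides in capitals. The NQO1 window is chr16:69726561-69726810 and the GCLM window is chr1:93909431-93909680, both on the minus strand.
NQO1: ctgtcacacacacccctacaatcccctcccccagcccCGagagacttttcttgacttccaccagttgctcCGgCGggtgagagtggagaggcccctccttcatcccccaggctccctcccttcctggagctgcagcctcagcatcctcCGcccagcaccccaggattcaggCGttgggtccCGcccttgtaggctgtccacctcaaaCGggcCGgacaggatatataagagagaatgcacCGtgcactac
GCLM: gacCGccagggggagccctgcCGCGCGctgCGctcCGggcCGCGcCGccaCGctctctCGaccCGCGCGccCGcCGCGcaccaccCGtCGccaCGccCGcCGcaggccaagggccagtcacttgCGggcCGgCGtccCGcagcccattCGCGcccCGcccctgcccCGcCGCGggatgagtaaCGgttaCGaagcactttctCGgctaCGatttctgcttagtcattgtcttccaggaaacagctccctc
The NQO1 window contains 9 CpGs and the GCLM window contains 36, against a median of 11 in 35116 promoters, and 95.1% of these promoters have fewer CpGs than GCLM. Promoter entries were matched for 7 of the 9 genes, and HMOX1 and AKR1B10 were not matched. SRXN1 has 38 CpGs in the same window and TXNRD1 has 24, whereas AKR1C1 and AKR1C2 have 2 each and AKR1C3 has 0. The core letters of the antioxidant response element, TGACNNNGC, were searched on both strands of the 300 bases from 250 before to 50 after the start. They were found at 1 place for GCLM, as gcttagtca on the printed strand from base -34 to base -26, and at 2 places for TXNRD1. The letters were not found in the windows of NQO1, SRXN1, AKR1C1, AKR1C2 and AKR1C3, and 13.3% of all promoters hold a match. Sequence outside these 300 bases was not searched, so elements farther from the start would be missed. A match describes letters only, and DNA methylation of these windows was not analysed here. A relation of CpG number to the ratios was not tested. TXNRD1, with 24 CpGs, had a ratio of 0.837, and SRXN1, with 38, had a ratio of 0.670 whose interval includes 1.

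HMOX1, the inducible heme oxygenase that cleaves heme to biliverdin, iron and carbon monoxide, was also higher in DAC-treated cells, but in fewer of them. It lies on the plus strand of chromosome 22 (chr22:35380361-35394214, hg38) and has 5 exons. It had 512 UMIs in mock-treated and 1152 UMIs in DAC-treated cells, a ratio of 1.90 (1.71 to 2.11), with 82.0% of all genes at a lower ratio. At least 1 UMI was detected in 20.1% (18.3 to 22.1%) of mock-treated and 29.7% (27.6 to 31.9%) of DAC-treated cells, and at least 3 UMIs in 29 and 89 cells. Even among the deep cells, the median was 0 UMIs in both libraries. A few DAC-treated cells held much of the HMOX1 count. The highest mock-treated cell had 14 UMIs and the highest DAC-treated cell had 102, and at least 10 UMIs were present in 3 and 14 cells. The 18 cells with the most HMOX1 UMIs held 18% of them in mock-treated and 31.3% in DAC-treated cells. When the 1% of cells with the most HMOX1 UMIs was left out of each library, an alternative chosen after seeing the data, the ratio was 1.59 (1.41 to 1.80). The excess CV2 of HMOX1 was 2.45 in mock-treated and 12.6 in DAC-treated cells.

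**Figure D2:**
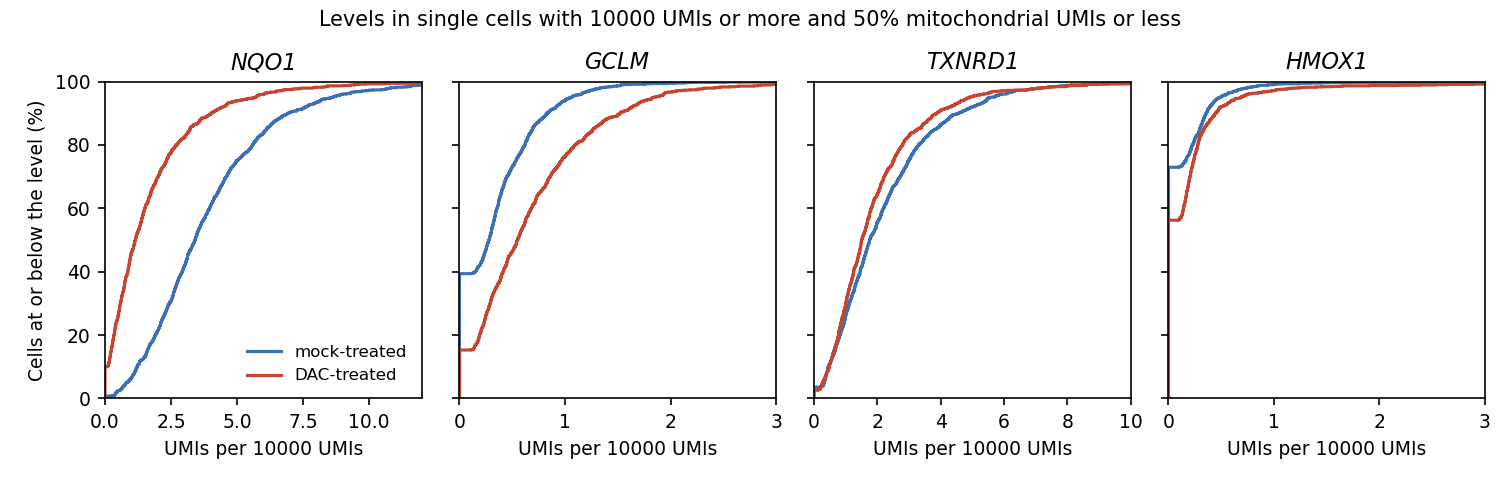
Cumulative share of cells (%) by the level of NQO1, GCLM, TXNRD1 and HMOX1 in UMIs per 10000 UMIs, in the 1298 mock-treated (blue) and 1120 DAC-treated (red) cells with at least 10000 UMIs and at most 50% mitochondrial UMIs. The NQO1 curve of DAC-treated cells lies to the left, the GCLM curve lies to the right, the TXNRD1 curves run close together, and the HMOX1 curves start at the large share of cells without a UMI.

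TXNRD1, the cytosolic selenoprotein that reduces thioredoxin with NADPH, differed least between the libraries among the 4 genes. It spans chr12:104215779-104350307 (hg38, plus strand), its main transcript has 17 exons, and it overlaps EID3 on the same strand, and molecules of both cannot be told apart where they overlap. It had 11164 UMIs in mock-treated and 11053 UMIs in DAC-treated cells, a ratio of 0.837 (0.815 to 0.859), and 25.1% of all genes had a lower ratio. At least 1 UMI was detected in 78.2% (76.3 to 80.1%) of mock-treated and 72.4% (70.3 to 74.5%) of DAC-treated cells, and at least 3 UMIs in 58.4% and 56.3%. The median level in deep cells was 1.75 per 10000 UMIs in mock-treated and 1.5 in DAC-treated cells. The excess CV2 of TXNRD1 was 0.508 in mock-treated and 0.964 in DAC-treated cells, beside the medians of 0.177 and 0.352 over genes. The direction was reversed in cells thinned to 1000 UMIs, where the excess CV2 was 0.739 in mock-treated and 0.505 in DAC-treated cells. That setting also used more cells, 1645 and 1542 in place of 1388 and 1293, and the part of depth was not tested.

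The direction for TXNRD1 depended on the mitochondrial share of the cells. In cells with at most 20% mitochondrial UMIs, the level was 253 CPM in 1176 mock-treated and 205 CPM in 976 DAC-treated cells, a ratio of 0.808 (0.784 to 0.834). In cells with 20 to 50% mitochondrial UMIs, the level was 137 CPM in 296 mock-treated and 181 CPM in 456 DAC-treated cells, a ratio of 1.32 (1.23 to 1.41). In cells with more than 50%, the ratio was 1.07 (0.872 to 1.31). When each library was divided by total UMIs into 3 groups of equal size, TXNRD1 ratios ranged from 0.788 to 0.884. The other 3 well-counted genes kept their direction in every group of cells examined. Ratios of NQO1 ranged from 0.303 to 0.490, those of GCLM from 1.59 to 2.24, and those of HMOX1 from 1.65 to 3.25.

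**Figure D3:**
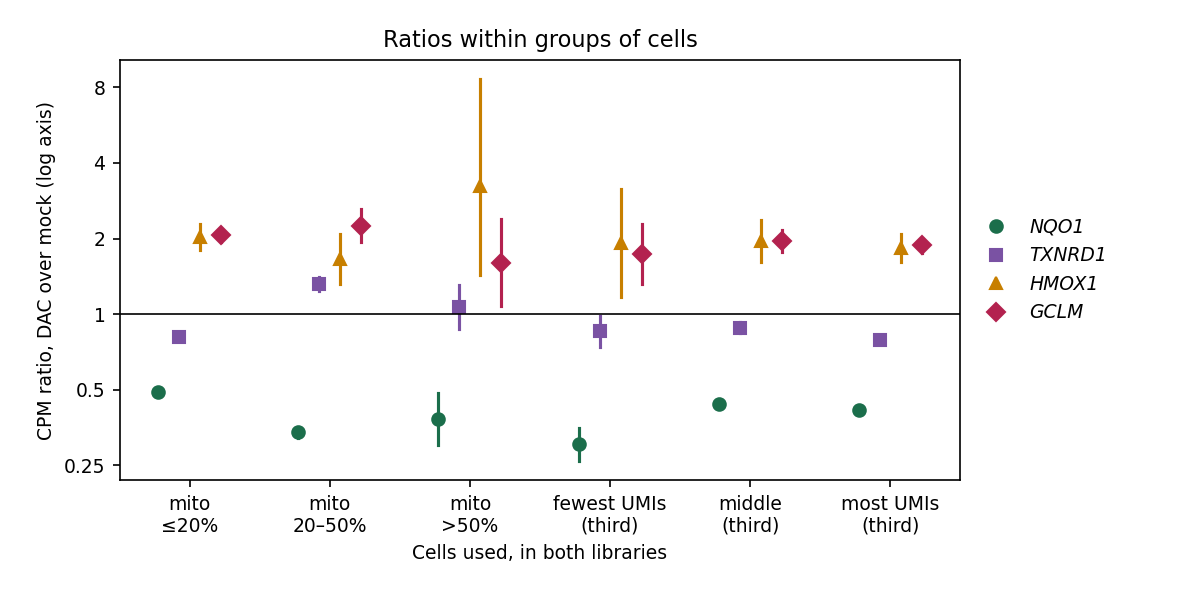
CPM ratio, DAC-treated over mock-treated, on a log axis for NQO1, TXNRD1, HMOX1 and GCLM within cells grouped by mitochondrial share and within 3 equal groups of each library by total UMIs, with exact 95% intervals for counting error. GCLM and HMOX1 lie above 1 and NQO1 below 1 in all 6 groups, whereas TXNRD1 lies below 1 in cells with at most 20% mitochondrial UMIs and above 1 in cells with 20 to 50%.

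SRXN1, the sulfiredoxin that repairs hyperoxidized peroxiredoxins, was close to the limit of detection. The gene lies at chr20:646615-653200 (hg38, minus strand, 2 exons) and overlaps an unnamed gene on the same strand. Molecules of both cannot be told apart where they overlap. It had 29 UMIs in mock-treated and 23 in DAC-treated cells, a ratio of 0.670 (0.370 to 1.2), whose interval includes 1. Each UMI was in a different cell, and 1754 mock-treated cells were without a UMI where an even share of the UMIs over the depth of each cell gives 1754.34. No grouping of SRXN1 in particular cells was therefore detectable at this depth.

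The aldo-keto reductases reduce aldehydes, ketones and steroids with NADPH. AKR1B10, a retinal and aldehyde reductase of the gut epithelium, lies on chromosome 7 (chr7:134527567-134541412, plus strand, 10 exons). It was detected in 0 of 1783 mock-treated cells, which allows a share of cells with a UMI of up to 0.168% at the floor of 3 counts and 0.207% by the exact interval, and in 17 of 1751 DAC-treated cells (0.971%, 0.567 to 1.55%), with 1 UMI in each. Its DAC-treated level was at least 4.79-fold higher, computed against a floor of 3 counts over the mock-treated library and the DAC-treated count as observed. The exact interval for the counting error of both counts, which does not use the floor, had a lower limit of 3.49-fold. Even shares predict 1734.13 DAC-treated cells without a UMI, and 1734 were observed. Its close relative AKR1B15, which lies next to it (chr7:134549110-134579875), had 2 UMIs in mock-treated and 814 in DAC-treated cells, a ratio of 344 (94.9 to 2846). Over the alternatives its log2 ratio ranged from 4.0 to 8.92, with the floor in place of the mock-treated count where no UMI was left. AKR1B15 was in 153 DAC-treated cells, of which 15 with at least 10 UMIs held 60.2% of its UMIs, and the highest cell had 175. Of the 17 cells with AKR1B10, 1 also had AKR1B15, which was in 8.74% of all DAC-treated cells. Within the last 500 bases of its main transcript, AKR1B10 shares 8.87% of its 50-base windows and none of its 90-base windows with AKR1B15.

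AKR1C1, AKR1C2 and AKR1C3, which reduce ketosteroids and prostaglandins, lie in a cluster on chromosome 10, at chr10:4963253-4983283 (plus strand), chr10:4987775-5018031 (minus strand) and chr10:5035354-5107686 (plus strand), and each main transcript has 9 exons. AKR1C1 had 28 UMIs in mock-treated and 11 in DAC-treated cells, a ratio of 0.332 (0.149 to 0.688), and was detected in 28 and 10 cells. AKR1C2 had 2 UMIs in each library, under the floor of 3 counts in both, and no ratio is given. AKR1C3 had 30 UMIs in each library, a ratio of 0.845 (0.492 to 1.45), in 28 mock-treated and 26 DAC-treated cells. These genes are close copies, so reads of 1 member can be assigned to another or left unassigned, and their counts are uncertain. Within the last 500 bases of the main transcript, 37.0% of the 90-base windows of AKR1C2 are also in AKR1C1, 19.95% of those of AKR1C3 are in AKR1C2, and 3.89% of those of AKR1C3 are in AKR1C1. No 90-base window of this stretch of AKR1C1 is in AKR1C2 or AKR1C3. The copies extend into the promoters. The window of AKR1C1 (chr10:4963165-4963414, plus strand, RefSeq, GRCh38.p14) is shown with CpGs in capitals as an example of a member promoter poor in CpGs, and 245 unbroken bases of it are identical in AKR1C2.
AKR1C1: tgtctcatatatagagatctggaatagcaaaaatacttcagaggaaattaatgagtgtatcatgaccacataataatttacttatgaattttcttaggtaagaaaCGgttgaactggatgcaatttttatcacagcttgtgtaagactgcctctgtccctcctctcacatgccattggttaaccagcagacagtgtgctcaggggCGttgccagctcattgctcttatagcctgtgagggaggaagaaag
It holds 2 CpGs, as does the window of AKR1C2. AKR1C1 was at 0.561 CPM in mock-treated and 0.186 CPM in DAC-treated cells.

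Co-variation of the 4 well-counted genes was then described over the deep cells of each library, by Pearson correlation of log2(UMIs per 10000 + 1). Cells of 1 library share its preparation, and part of each value comes from depth and sparse counts, so the values are descriptions. In mock-treated cells, the median over the 6 pairs was 0.0457, with a range from -0.0220 to 0.248. In DAC-treated cells, the median was 0.166, with a range from 0.0943 to 0.25. Pairs drawn from all genes with a UMI in at least 20% of these cells had a median of 0.00883 and a 95th percentile of 0.0853 in mock-treated cells, and 0.0110 and 0.100 in DAC-treated cells. Since the DAC-treated cells were deeper, cells were also thinned to 10000 UMIs, and the median over the 6 pairs was then 0.0259 in mock-treated and 0.105 in DAC-treated cells. Over all cells, shallow ones included, it was 0.143 in mock-treated and 0.211 in DAC-treated cells. GCLM with TXNRD1 was the highest pair in both libraries, at 0.248 and 0.25. HMOX1 had values of 0.238 with GCLM and 0.216 with TXNRD1 in DAC-treated cells, against 0.103 and 0.0314 in mock-treated cells. By Spearman correlation, these values were 0.192 and 0.133 in DAC-treated and 0.0484 and 0.0111 in mock-treated cells. The correlations of NQO1 with the other 3 in mock-treated cells ranged from -0.0220 to 0.0478, and they ranged from 0.0943 to 0.117 in DAC-treated cells. TXNRD1 also varied with NFE2L2, at 0.297 in mock-treated and 0.154 in DAC-treated cells, and with the cystine transporter SLC7A11, at 0.306 and 0.117. The mitochondrial share of the cell moved with these genes as well, and its part in the correlations was not tested. Its correlation with TXNRD1 was -0.332 in mock-treated and -0.143 in DAC-treated cells, and that with GCLM was -0.152 and -0.219. The values for NQO1 were -0.0182 and -0.174, and those for HMOX1 were 0.000419 and -0.0989.

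**Figure D4:**
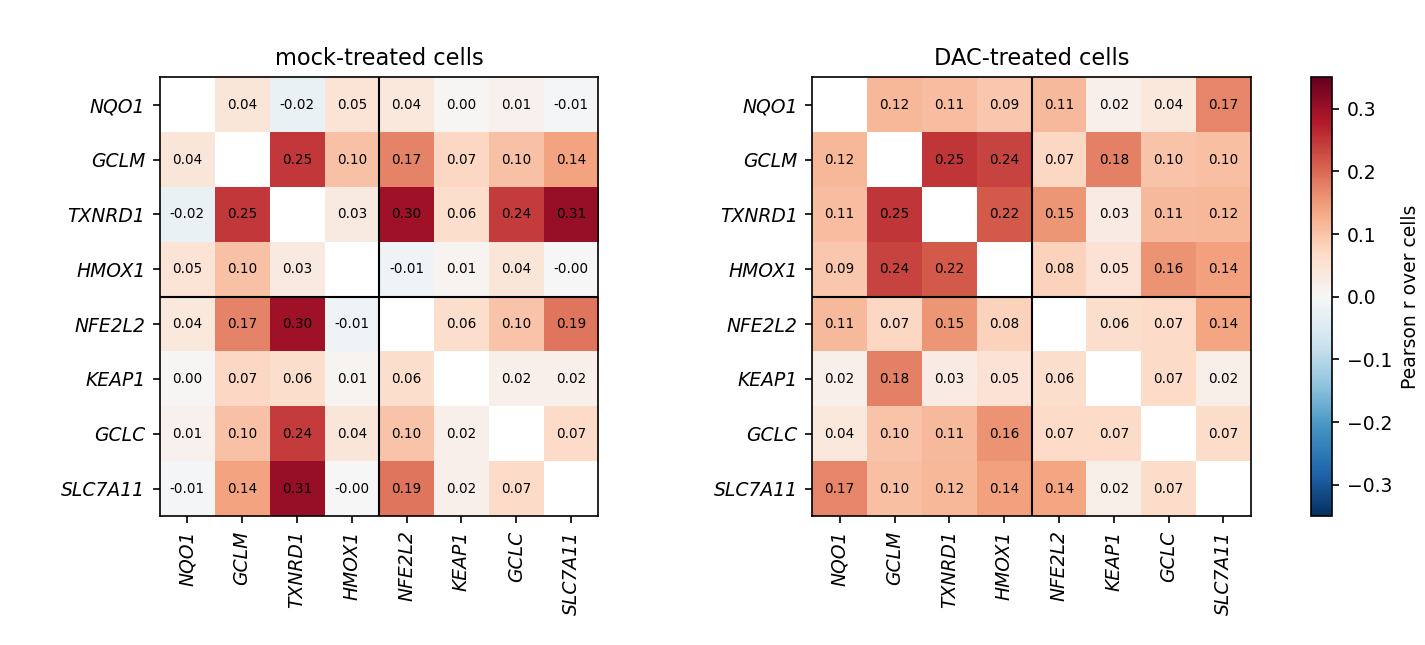
Pearson correlation of log2(UMIs per 10000 + 1) between NQO1, GCLM, TXNRD1 and HMOX1 and 4 genes of the pathway, NFE2L2, KEAP1, GCLC and SLC7A11, over 1298 mock-treated cells (left) and 1120 DAC-treated cells (right), with the value in each square. GCLM with TXNRD1 is near 0.25 on both sides, and the squares of HMOX1 with GCLM and TXNRD1 are darker on the right.

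Genes most like the members were those with the highest correlation with the sum of the 9 genes over the same cells. UMIs were summed, so the sum is mostly NQO1 (368 and 157 CPM in mock- and DAC-treated cells) and TXNRD1 (224 and 187). The mix differed between the libraries, so their lists rank genes against different sums. The ferritin light chain FTL, which stores iron, came first in both libraries, at 0.342 among 8797 genes in mock-treated cells and 0.378 among 9879 genes in DAC-treated cells. The next in mock-treated cells were the chaperone HSPA5 (0.288), MAP1LC3B (0.287), the amino acid transporter subunit SLC3A2 (0.262) and the transaminase GOT1 (0.258). In DAC-treated cells they were the peroxiredoxin PRDX1 (0.334), the ferritin heavy chain FTH1 (0.296), transketolase TKT (0.271) and VCP (0.271). NQO1 alone was most like FTL (0.275), TKT (0.215) and PRDX1 (0.213) in mock-treated cells, and most like TKT (0.328), GAPDH (0.327) and PPIA (0.264) in DAC-treated cells. HMOX1 was most like FTL (0.121), TRIM38 (0.116) and the autophagy receptor SQSTM1 (0.112) in mock-treated cells, and most like SQSTM1 (0.256), OSGIN1 (0.256) and MSRB1 (0.219) in DAC-treated cells. AKR1C1 was in too few cells for its nearest genes to be read.

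The genes around the members were examined by role, with the same minimum of 100 UMIs and the same 1.5-fold limit. When both libraries were scaled by the median ratio of all genes instead of the total UMIs, every log2 ratio was lower by 0.24, and the shares of all genes went from 31.0% higher and 14.2% lower to 21.2% higher and 21.7% lower. Of 11 genes that control NRF2, 4 were higher, 1 was lower and 6 were between, with a median log2 ratio of 0.47, and 1 was higher and 2 were lower under median-of-ratios scaling. NFE2L2 itself was the lowest of them, with 7513 UMIs in mock-treated and 5389 in DAC-treated cells, a ratio of 0.606 (0.585 to 0.628), and was detected in 76.8% and 67.3% of cells. KEAP1 had 1392 and 2731 UMIs, a ratio of 1.66 (1.55 to 1.77), which became a log2 ratio of 0.49, under the 1.5-fold limit, with median-of-ratios scaling. MAFG, a small MAF partner of NRF2, was the highest, with a log2 ratio of 0.91.

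Of 16 glutathione genes with enough UMIs, 5 were higher and 6 were lower, with a median log2 ratio of -0.32 (3 and 8 under median-of-ratios scaling). The share over all genes was 31.0% higher and 14.2% lower (21.2% and 21.7% under that scaling), with a median of 0.24, so that the count of higher genes was near the background. The 2 subunits of glutamate-cysteine ligase diverged. Whereas GCLM was higher, the catalytic subunit GCLC had 1759 UMIs in mock-treated and 1213 in DAC-treated cells, a ratio of 0.583 (0.541 to 0.628). SLC7A11, which imports the cystine for glutathione, was the lowest, from 5399 to 925 UMIs, a ratio of 0.145 (0.135 to 0.155), and was detected in 73.1% and 22.8% of cells. GSTM3, a glutathione transferase, had 1 UMI in mock-treated and 271 in DAC-treated cells, a ratio of 229 (40.8 to 9081). The peroxidase GPX3 had 0 and 578 UMIs, at least 163-fold higher against the floor (132-fold with counting error included), and the order of both was not resolved.

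Of 14 genes in the thioredoxin and peroxiredoxin list, which also holds sestrins, SOD1 and CAT, 5 were higher and 2 were lower. The median log2 ratio was 0.38 (3 higher and 2 lower under median-of-ratios scaling). The counts of 5 and 2 were near the shares over all genes, 31.0% higher and 14.2% lower. These shares are also the background of the NADPH and the heme and iron genes. The 2 lower genes were CAT, at a ratio of 0.470, and SESN2, and SESN1 was 1 of the 5 higher. TXNIP, an inhibitor of thioredoxin, had 0 UMIs in mock-treated and 534 in DAC-treated cells, at least 150-fold higher against the floor (122-fold with counting error included), and the sestrin SESN2 was the lowest at a ratio of 0.394 (0.367 to 0.422). PRDX1, a target repaired by SRXN1, had 36428 and 90769 UMIs, a ratio of 2.11 (2.08 to 2.13). Of 7 NADPH-producing genes, none was higher and 3 were lower, with a median of -0.20, and IDH1 was the lowest at a ratio of 0.344 (0.318 to 0.373). Of 8 heme and iron genes, 3 were higher and 1 was lower, with a median of 0.26 (2 and 2 under median-of-ratios scaling). The transferrin receptor TFRC was the highest at a ratio of 2.18 (2.05 to 2.32) and FTH1 the lowest at 0.514 (0.511 to 0.516), whereas FTL was at 1.30 (1.30 to 1.31).

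Of 14 detoxification and export genes, 2 were higher and 5 were lower, with a median log2 ratio of -0.38 (1 and 8 under median-of-ratios scaling). Beside this and the next list stand 31.0% of all genes higher and 14.2% lower, with a median of 0.24. The carbonyl reductase CBR1 had 0 UMIs in mock-treated and 1071 in DAC-treated cells, at least 302-fold higher against the floor (245-fold with counting error included), and was detected in 24.1% of DAC-treated cells. The conjugate exporter ABCC2 was the lowest, at a ratio of 0.158 (0.133 to 0.187). Of 5 other aldo-keto reductases, 2 were higher and none was lower, with a median of 0.17 that turned to -0.07 under median-of-ratios scaling, where 2 were higher and 1 was lower. They ranged from AKR7A2 at a ratio of 0.778 (0.747 to 0.811) to AKR1B15 as given above.

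**Figure D5:**
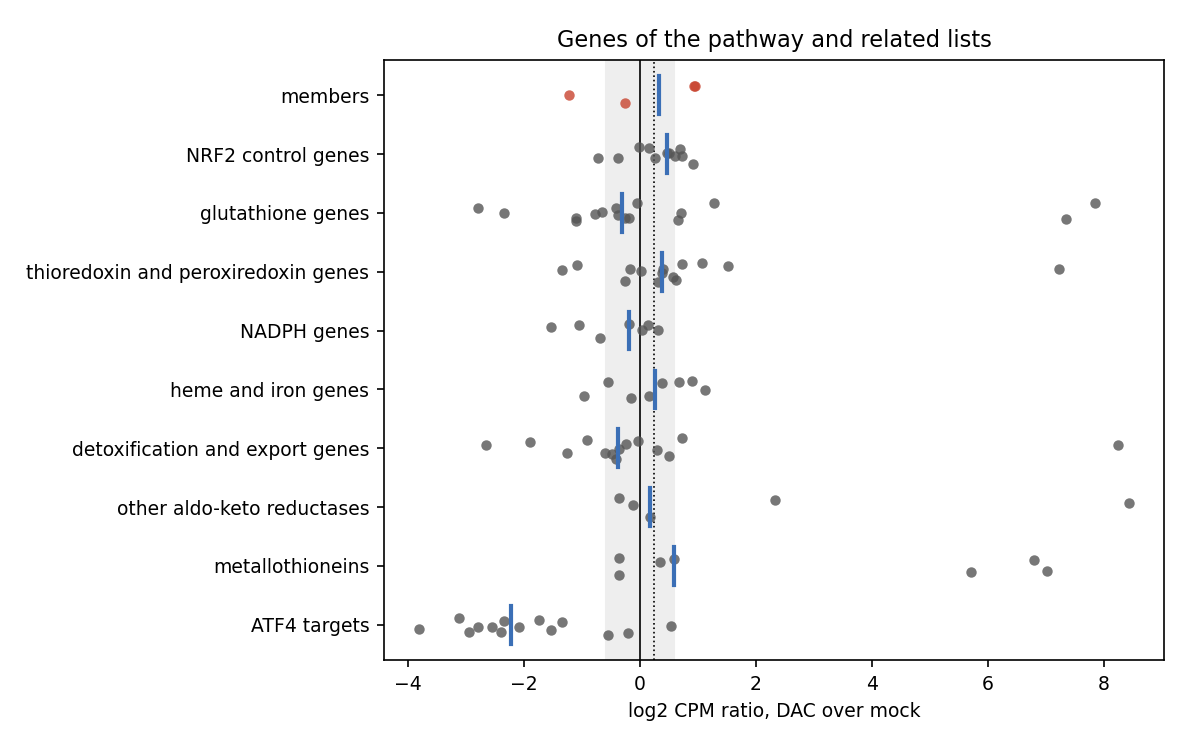
Log2 CPM ratio, DAC-treated over mock-treated, of each gene with at least 100 UMIs over both libraries in the group of members and in 9 lists of related genes. Grey or red points are genes, blue bars are list medians, the grey band is within 1.5-fold, the dotted line is the median of all genes, and genes without a mock-treated UMI are placed at their lower limit; members lie on both sides of the band and ATF4 targets mostly to its left.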

How the data were processed

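Single cell RNA sequencing of 1 mock-treated and 1 DAC-treated HCT116 culture was analysed. Per the labels and the submitters' processing notes, the authors used the Chromium 3′ kit for the libraries, Cell Ranger for the processing and the genome build hg38, and the deposited values are raw UMI counts of each gene in each cell. The annotation release is not given in the sources used here, and positions were taken from GENCODE release 44. All deposited cells were used, 12 barcodes were in both libraries, and 24 gene names were repeated.

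Each gene's UMIs were added up per library and divided by the library total (CPM). Ratios have exact conditional binomial intervals, sums have exact Poisson intervals, and shares have exact Clopper-Pearson intervals, all at 95% and covering counting error alone. No test was made, since cells of 1 library are not replicates. Doublets were not called, because both libraries hold a single cell line. An alternative without the 5% deepest cells was tried. The squared CV used genes with at least 0.05 UMI per thinned cell.

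The members and lists were chosen with earlier results of these data known. Named from each list were the genes with the highest and the lowest ratio, and NFE2L2, KEAP1, GCLC and SLC7A11 in any case. The value of 1 gene under this rule is not reported here. GPX3, MT1H and MT1E were added after their values were seen, since they could not be ranked against GSTM3, MT1G and MT2A. CAT, SESN1 and SOD1 were named to say what their list holds. PRDX1 and FTL were named by their correlation with the members, and their ratios were added after the values were seen. Of the listed genes, 19 of 20 glutathione, 14 of 15 thioredoxin and 8 of 9 aldo-keto reductase genes were matched by name. Comparison of AKR1C proteins was replaced by shared transcript windows. Alternatives were other cells, depths, scalings and fold limits. Python 3.11.15 with numpy 2.4.6, scipy 1.17.1, pandas 2.3.3 and matplotlib 3.10.9 was used, and the computations were tested on simulated data.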

Additional observations from a re-analysis of the deposited data

How the results depend on the processing

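The counts of higher and lower members did not move under other choices of cells, thinning, or scaling. With a limit of 2-fold, 0 members were higher in place of 2 and NQO1 was still lower. The median log2 ratio of the 4 well-counted members was 0.34, and moved to 0.53 in cells thinned to 1000 UMIs, to 0.10 under median-of-ratios scaling, and to 0.20 without the top 1% of cells of each member (added after seeing the data). The cause of the first and the last was not tested. The median correlation of member pairs in mock-treated cells moved from 0.0457 to 0.143 when all cells were used (0.211 in DAC-treated cells), and that in DAC-treated cells from 0.166 to 0.105 in cells thinned to 10000 UMIs. Of the alternative values for single members, 24 were outside the counting interval of the main value and 62 were within it. KEAP1 ranged from 0.04, in cells thinned to 1000 UMIs, to 0.82 on the log2 scale. No paired analysis was possible because the labels give no replicate numbers and each condition has 1 library. SRXN1, AKR1B10, AKR1C1, AKR1C2 and AKR1C3 had at most 30 UMIs in a library, and the cause of these low counts was not tested.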

Other observations

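Metallothioneins, which bind zinc and copper, and targets of ATF4, which drives the response to amino acid shortage and shares SLC7A11 with NRF2, were listed beside the pathway. Of 7 metallothionein genes, 3 were higher and none was lower, with a median log2 ratio of 0.58, and 2 were lower under median-of-ratios scaling. MT1G had 9 UMIs in mock-treated and 1386 in DAC-treated cells, a ratio of 130 (68.4 to 285), and was detected in 0.505% and 20.3% of cells. MT1H had 0 and 394 UMIs, at least 111-fold higher against a floor of 3 counts (89.9-fold with counting error included), and the order of both was not resolved. MT2A, the most abundant, was at a ratio of 0.774 (0.766 to 0.783) and MT1E at 0.776 (0.762 to 0.790), and which was the lowest was not resolved. Of 14 ATF4 target genes, none was higher and 11 were lower (0 and 12 under median-of-ratios scaling), with a median log2 ratio of -2.22. Among all genes, 31.0% were higher and 14.2% were lower, with a median of 0.24. DDIT4 was the lowest, with 11274 UMIs in mock-treated and 954 in DAC-treated cells, a ratio of 0.0715 (0.0669 to 0.0764). ATF5 was the highest, at a ratio of 1.45 (1.38 to 1.51). The list also holds SLC7A11 and SESN2, which were the lowest of the glutathione list and of the thioredoxin and peroxiredoxin list.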
